A study of Sebastes mystinus with 44 samples.

Results

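In white muscle of juvenile blue rockfish (Sebastes mystinus), 118 of 239549 assembled features were abundant in 1 to 3 fish and low in almost all the others. Of the 239549, 155573 had a count in any fish. The 118 were chosen by their level in each fish. A feature was taken if it reached 20 CPM (the count multiplied by 1000000 and divided by the total count of that fish's library) in 1 to 3 of the 44 fish and stayed under 1 CPM in at least 38. A limit of 200 features was set for the case of more, and it was not reached. For comparison, 6602 features reached 20 CPM in at least 1 fish. A fish at 20 CPM or more is called a carrier of a feature, the fish that carry it are its carrier set, and the 118 features are called members. Since these levels chose the members, they are given as a description. Tests run on the same counts are reported further below, and nothing is read from them for the members.

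Each library came from 1 fish, and the fish fell into 12 groups by exposure and time. Fish were held in aquaria with flowing seawater. Control fish had seawater with no lowered pH or oxygen, pH fish had seawater acidified with carbon dioxide (high pCO2), and DO fish had seawater whose oxygen was lowered with nitrogen. The labels do not define the exposure named cross, which is known from the study as low pH and low oxygen combined. At 12 h every group held 4 fish. At 24 h control and cross held 4 fish each and pH and DO 3 each. At 2 weeks control, DO and cross held 4 fish each and pH 2. Fish are named here by the Mys number of the labels, which runs from Mys7064 to Mys7079 in cross fish and from Mys13 to Mys60 in all others. No source used here ties a fish to its aquarium or to its library preparation set. P-values therefore rest on the spread between fish, some of which may have shared an aquarium. Where fish of a group did, exposure and aquarium cannot be told apart.

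White muscle is the bulk of the body muscle of a bony fish and is built mainly of fast fibres that work on stored glycogen in short bursts. A dissected piece also holds blood, vessels, nerve and connective tissue, and its RNA is sequenced as a mixture. In such bulk RNA, fewer cells of a type and less RNA per cell cannot be told apart. The features carry Trinity identifiers, the mark of a de novo assembly, in which transcripts are rebuilt from the reads with no genome. The number after DN names a cluster of overlapping sequences, the number after c a component of it, and the number after g a feature that the assembler treats as 1 gene. Alleles and close gene copies can become separate features in such an assembly, and reads shared by near-identical features may be split between them. The tables name features by these identifiers alone, so neither the function of a member nor the tissue label could be checked against marker genes. Feature lengths were not used here, so levels are compared chiefly between fish for 1 feature. Ranks, medians and correlations over members describe CPM alone, with no correction for length.

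Libraries held 9885000 to 36692935 counts (median 15331500), and 3 counts, taken as the lowest level that the depth resolves, equalled 0.0818 to 0.303 CPM. The pair of libraries that carried most members also stood apart in some measures over all features, members included. Cross fish Mys7068 (24 h) had 25816 features at 1 CPM or more and DO fish Mys35 (24 h) had 24823, whereas the other 42 fish had 13646 to 20220 (median 18121.5). Their totals were within the range of the others, at 14536068 and 19465129 counts. The 100 most abundant features took 42.1% of all counts in Mys35, the lowest share of the 44 fish. In Mys7068 they took 51.6%, within the 46.2% to 64.9% of the other 42 fish. The trimmed mean scaling factor (TMM) was 1.74 in Mys35 and 1.60 in Mys7068, the 2 highest values, beside 0.635 to 1.35 in the other fish. Over the 18759 features with a mean of at least 1 CPM that were not members, the log2 levels of these fish correlated with r = 0.913 across features. Over all 946 pairs of fish r ran from 0.797 to 0.972 (median 0.923, features are not independent replicates). Mys35 ranked 3 of 43 among the fish most like Mys7068, and Mys7068 ranked 15 of 43 among those most like Mys35. Whether tissue composition, aquarium or library preparation had a part in this was not tested.

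The members came in blocks, and 2 fish carried most of them. Of the 118, 102 were carried by Mys7068, Mys35 or both, and 16 by neither. Mys7068 carried 97 members, Mys35 42, Mys7064 5 and Mys26 3. A member had 1 carrier in 77 cases, 2 in 40 and 3 in 1, which made 160 combinations of a member and a carrier. Those combinations fell into 14 carrier sets, and 4 sets with at least 5 members each took 107 members. Mys7068 alone carried 60 members (50.8%), Mys35 and Mys7068 together 37 (31.4%), Mys35 alone 5 and the cross fish Mys7064 (12 h) alone 5. Cross fish Mys7069 (24 h) alone carried 2, and the 9 other sets had 1 member each. In all, 15 fish carried a member and 29 carried none.

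**Figure D1:**
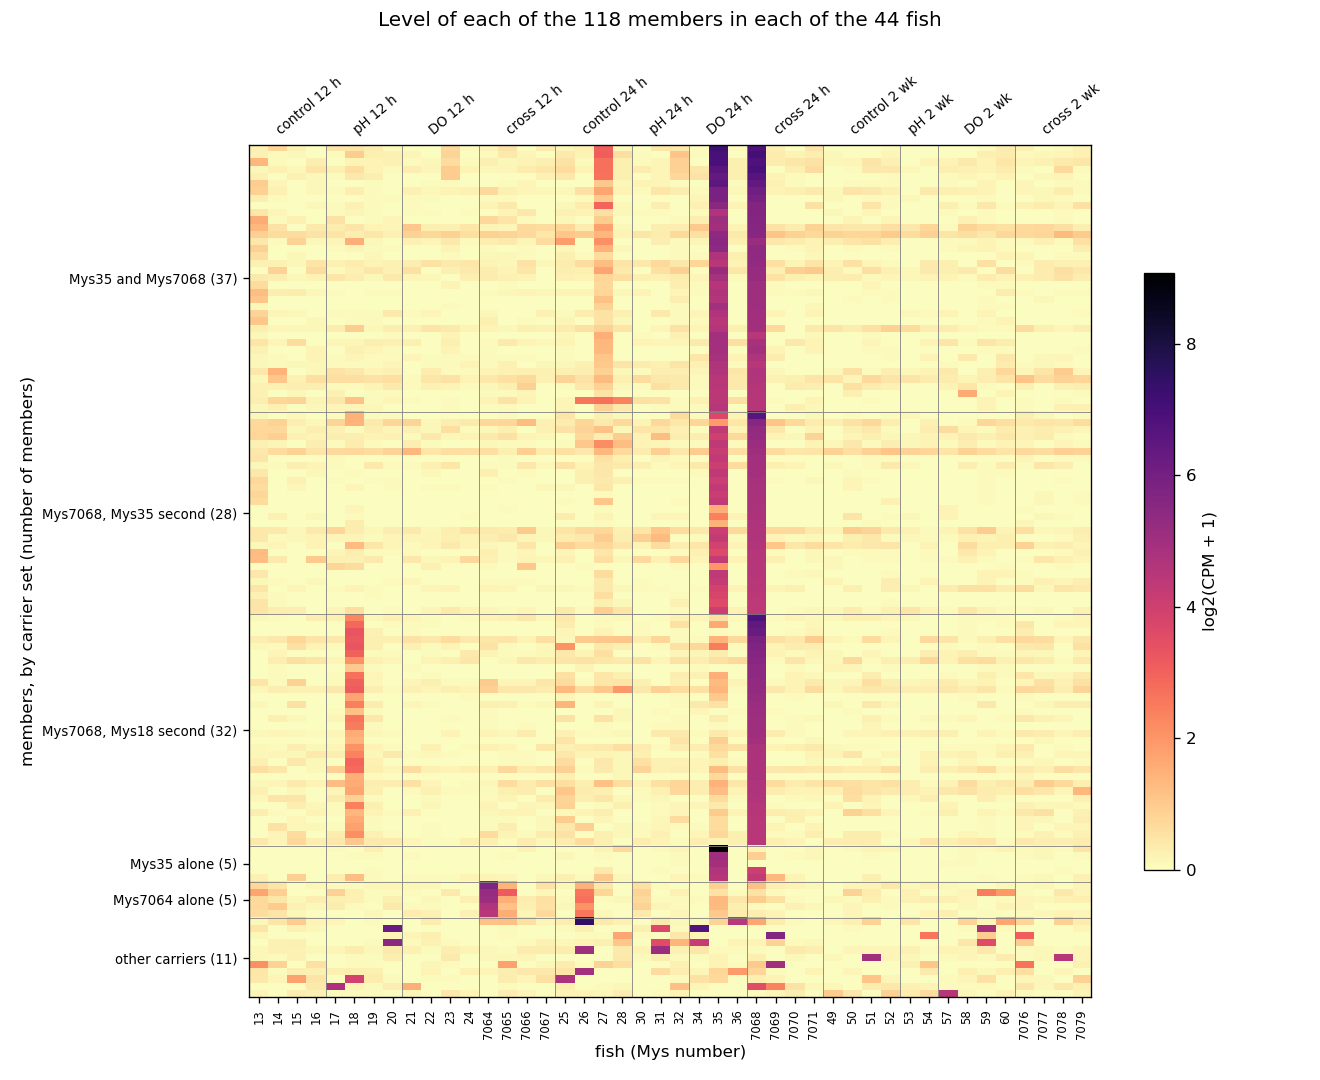
Level of each of the 118 members (rows, ordered by carrier set) in each of the 44 fish (columns, ordered by group), as log2(CPM + 1) by colour. The columns of Mys35 and Mys7068 are dark over most rows, Mys18 shows a paler band over 32 of the rows of Mys7068, and the 11 rows at the bottom are dark in scattered fish.

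The highest level of a member ran from 20.03 to 541 CPM (median 30.3). It was at least 100 CPM in 8 members and under 50 CPM in 98. Members were under 1 CPM in a median of 41 fish and at 0 in a median of 17, and 5 members had at least a trace in every fish. At the lower edge, TRINITY_DN49385_c1_g1 was just inside with 20.03 CPM in Mys7068, and TRINITY_DN53752_c2_g6 was just outside with 19.84 CPM in its highest fish. TRINITY_DN55414_c6_g1 reached 56.2 CPM and was outside because 37 fish were under 1 CPM, 1 fewer than the rule asks. The number of fish at a low level kept out 3 features by 1 fish, and 7 members were under 1 CPM in exactly 38.

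Carriers gathered at 24 h. Of the 160 combinations, 148 (92.5%) were in fish of 24 h, 8 in fish of 12 h and 4 in fish of 2 weeks. By exposure 105 were in cross fish, 46 in DO fish, 5 in control fish and 4 in pH fish. Mys7068 and Mys35 made up 139 of the 160, so these shares mostly describe 2 fish. DO and control fish at 12 h and pH fish at 2 weeks carried none. Of the 41 members with 2 or 3 carriers, 0 had all carriers in 1 group and 40 had them all at 1 sampling time. For comparison, 61 of the 946 pairs of fish shared a group and 302 (31.9%) shared a time. Of those 40, 37 were the block of Mys35 and Mys7068, and without those fish 3 remained.

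Together the members took 0.381% of all counts in Mys7068 (95% exact binomial interval 0.378 to 0.384, counting error only), a summed level of 3810 CPM. In Mys35 they took 0.265%, or 2654 CPM. The other 42 fish had at most 0.0280%, in control fish Mys26 (24 h, 280 CPM), with a median of 0.00199%. The rule fixed that carriers would be high here. It did not fix how many of them 1 fish would hold.

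**Figure D2:**
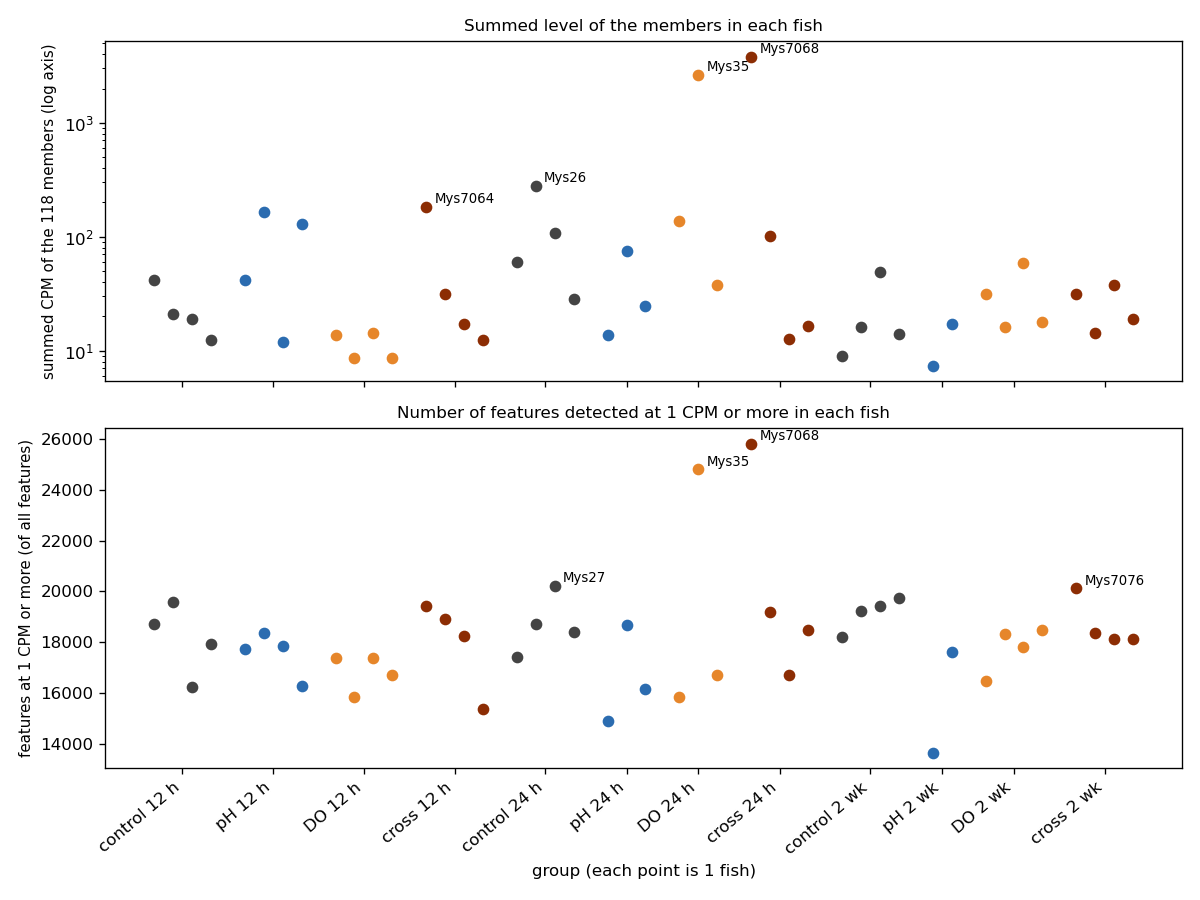
Summed CPM of the 118 members (upper panel, log axis) and number of features at 1 CPM or more (lower panel) in each fish, by group, 1 point per fish. Mys7068 and Mys35 are highest in both panels, at 3810 and 2654 CPM and at 25816 and 24823 features, while Mys26 and Mys7064 come next in the upper panel and lie among the others in the lower.

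In the block that Mys35 and Mys7068 carried together, both fish had similar levels of most members. Only members at 20 CPM or more in both fish are in it, so the rule favours similar levels and leaves out lower ratios. The median over the 37 members was 33.6 CPM in Mys7068 and 29.2 CPM in Mys35, and 26 members were higher in Mys7068 and 11 in Mys35. The level in Mys35 was 47.9% to 140% of that in Mys7068 (median 89.8%). Across the 37 members the CPM of both fish correlated with Pearson's r = 0.910 and Spearman's rho = 0.762, a description over features of 2 libraries. The next fish was most often control fish Mys27 (24 h), which followed the carriers in 29 of 37 members (78.4%). Its median was 1.20 CPM (0.427 to 7.40), or 3.52% of the level in Mys7068. Control fish Mys13 (12 h) followed them in 4 members and had a median of 0.246 CPM.

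TRINITY_DN41893_c4_g1 was the highest of this block. Its level was 0.0588 CPM in Mys34, 149 CPM in Mys35 and 0.0699 CPM in Mys36 of the DO group, and 113, 0.206, 0 and 0.391 CPM in cross fish Mys7068, Mys7069, Mys7070 and Mys7071. The other 37 fish had 0 to 6.97 CPM (median 0.101), with Mys27 highest. In both 24 h groups a single fish was high and its group mates were under 0.4 CPM.

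TRINITY_DN52821_c5_g2 had the same layout, with 131 CPM in Mys7068 and 124 CPM in Mys35. Its other cross fish of 24 h had 0.139 to 0.275 CPM, DO fish Mys34 and Mys36 had 0.0588 and 0 CPM, and the other 37 fish had 0 to 7.40 CPM, highest again in Mys27. TRINITY_DN51530_c3_g1 stood at 122 CPM in Mys35 and 114 CPM in Mys7068, with 5.61 CPM in Mys27 as the next value and 0 to 0.428 CPM in the group mates of both carriers. TRINITY_DN49525_c3_g3 stood at 122 CPM in Mys7068, 97.4 CPM in Mys35 and 5.55 CPM in Mys27. In these 4 named members Mys27 came next after the carriers and was far lower, while the first place went to Mys35 in 2 and to Mys7068 in 2.

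The 60 members that Mys7068 carried alone were split by the fish with the second highest level. Mys35 was second in 28 and pH fish Mys18 (12 h) in 32, and no other fish was second in any. Among all 97 members carried by Mys7068, the level in Mys35 as a share of that in Mys7068 had a gap: it was at most 16.6% in 38 members and at least 40.1% in 59. The 59 were all 37 of the joint block and 22 of the 28 with Mys35 second, and the 38 were all 32 with Mys18 second and the other 6 of the 28, so the gap and the second fish split the members differently. The gap was seen in the values and was not tested.

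Where Mys35 was second, the median was 25.9 CPM in Mys7068 and 15.9 CPM in Mys35, a median of 58.05% per member. In the 22 above the gap Mys35 had 11.3 to 19.8 CPM, so these were apart from the joint block by the 20 CPM threshold. In the 6 below it Mys35 had 1.80 to 11.9 CPM, or 5.80% to 16.6% of the level in Mys7068. Mys27 and Mys13 were at 0.356 and 0.328 CPM (medians). TRINITY_DN33504_c0_g1, the highest of the 28 and 1 of the 6 below the gap, had 96.4 CPM in Mys7068, 11.9 CPM in Mys35 and 1.75 CPM in Mys18. Its other cross fish of 24 h had 0, 0 and 0.0773 CPM.

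Where Mys18 was second, the median was 31.6 CPM in Mys7068, 3.66 CPM in Mys18 (0.820 to 8.89) and 0.568 CPM in Mys35. The level in Mys18 was 2.47% to 25.6% of that in Mys7068 (median 11.6%), and the level in Mys35 was 0% to 8.74% (median 2.41%). In the joint block Mys18 had a median of 0.332% of the level in Mys7068, and in the 28 members above 0.431%. The 32 were grouped by Mys18 being second, which favours a higher share there, so the contrast is a description. Control fish Mys25 (24 h) had a median of 0.361 CPM in the 32 members. Across the 32 members the CPM of Mys7068 and Mys18 correlated with r = 0.511 and rho = 0.550, a description over features of 2 libraries.

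TRINITY_DN45050_c0_g4, the highest of the 32, had 113 CPM in Mys7068 and 0.0686, 0.139 and 0.0773 CPM in the other cross fish of 24 h. The 40 fish of other groups had 0 to 3.88 CPM (median 0.0817), with Mys18 highest. TRINITY_DN54659_c2_g2 had 55.8 CPM in Mys7068 and 8.16 CPM in Mys18, and TRINITY_DN54659_c2_g5 of the same component had 32.4 and 5.24 CPM. In both, Mys7068 was the only carrier and its 3 group mates were under 1 CPM.

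**Figure D3:**
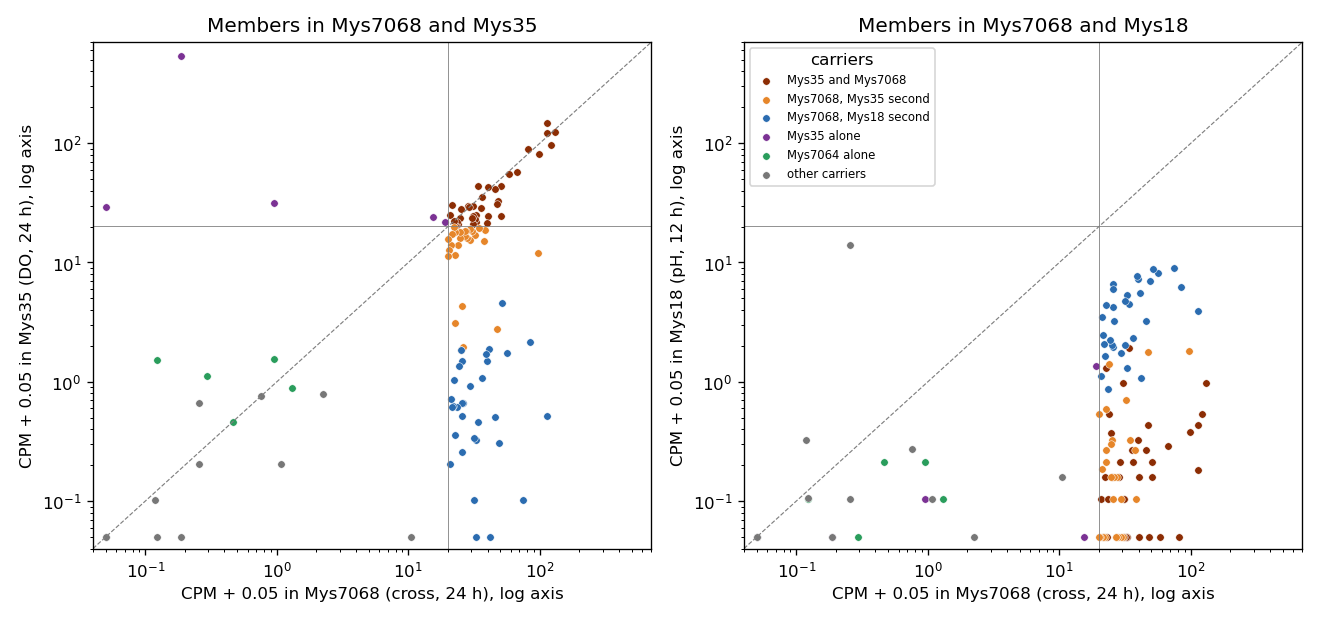
CPM of each member in Mys7068 (horizontal) against Mys35 (left panel) and Mys18 (right panel), with 0.05 CPM added and log axes; 1 point per member, coloured by carrier set, grey lines at 20 CPM, dashed line at equal levels. Members of the joint block lie along the dashed line in the left panel, and the 32 members with Mys18 second lie low there. In the right panel 26 of the 32 lie above all other members carried by Mys7068, which reach 1.86 CPM in Mys18. The 32 were grouped by Mys18 being second, which favours both positions.

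Some members of the joint block and of Mys7068 alone shared a component of the assembly. TRINITY_DN49525_c3_g3 belonged to the joint block, with 122 CPM in Mys7068 and 97.4 CPM in Mys35. TRINITY_DN49525_c3_g5 had 41.9 CPM in Mys7068 and was second in Mys18 at 1.03 CPM, with the other cross fish of 24 h at 0 to 0.0695 CPM. The 6 other features of that component summed to 4.52 to 22.01 CPM over the fish (median 9.95) and to 11.3 CPM in Mys7068.

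Mys35 alone carried 5 members. TRINITY_DN49996_c24_g4 had the highest level of all members, 541 CPM in Mys35, with 0 CPM in DO fish Mys34 and Mys36. The other 41 fish had 0 to 0.607 CPM (median 0), and 24 of the 44 fish were at 0. TRINITY_DN55898_c2_g2 had 31.7 CPM in Mys35, 0 CPM in both group mates and at most 0.894 CPM elsewhere, in Mys7068. TRINITY_DN55439_c7_g4 had 29.0 CPM in Mys35 and was at 0 in 40 fish, the most of any member. Mys7068 was second in 3 of the 5. Besides TRINITY_DN55898_c2_g2 these were TRINITY_DN52034_c1_g1, with 23.8 CPM in Mys35 and 15.3 CPM in Mys7068, and TRINITY_DN42255_c7_g3, with 21.99 and 18.99 CPM. The 20 CPM threshold set the last 2 apart from the joint block.

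Mys7064 alone carried 5 members, and control fish Mys26 (24 h) and cross fish Mys7065 (12 h) accompanied it at lower levels. The median over the 5 was 32.9 CPM in Mys7064 (21.4 to 53.6), 4.93 CPM in Mys26 (1.79 to 5.51), 1.86 CPM in Mys7065 (1.23 to 7.72) and 1.06 CPM in Mys35. Mys26 was second in 4 of the 5 and Mys7065 in 1. TRINITY_DN45365_c2_g1 had 53.6 CPM in Mys7064, 1.72, 0 and 0.419 CPM in its group mates Mys7065, Mys7066 and Mys7067, and 0 to 1.79 CPM in the 40 other fish, highest in Mys26. TRINITY_DN41484_c0_g1 had 36.5 CPM in Mys7064, 7.72 CPM in Mys7065, 4.95 CPM in Mys26 and 4.47 CPM in DO fish Mys59 (2 weeks). Mys7064 had 19435 features at 1 CPM or more, rank 7 of the 44 fish, and 71200 with any count, more than every fish but Mys35 (77071). Its library was among the deepest, at 30336370 counts, beside 19465129 in Mys35. The deeper libraries of Mys7065 (34333988 counts) and Mys19 (36692935 counts) had 68961 and 64187 features with any count.

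**Figure D4:**
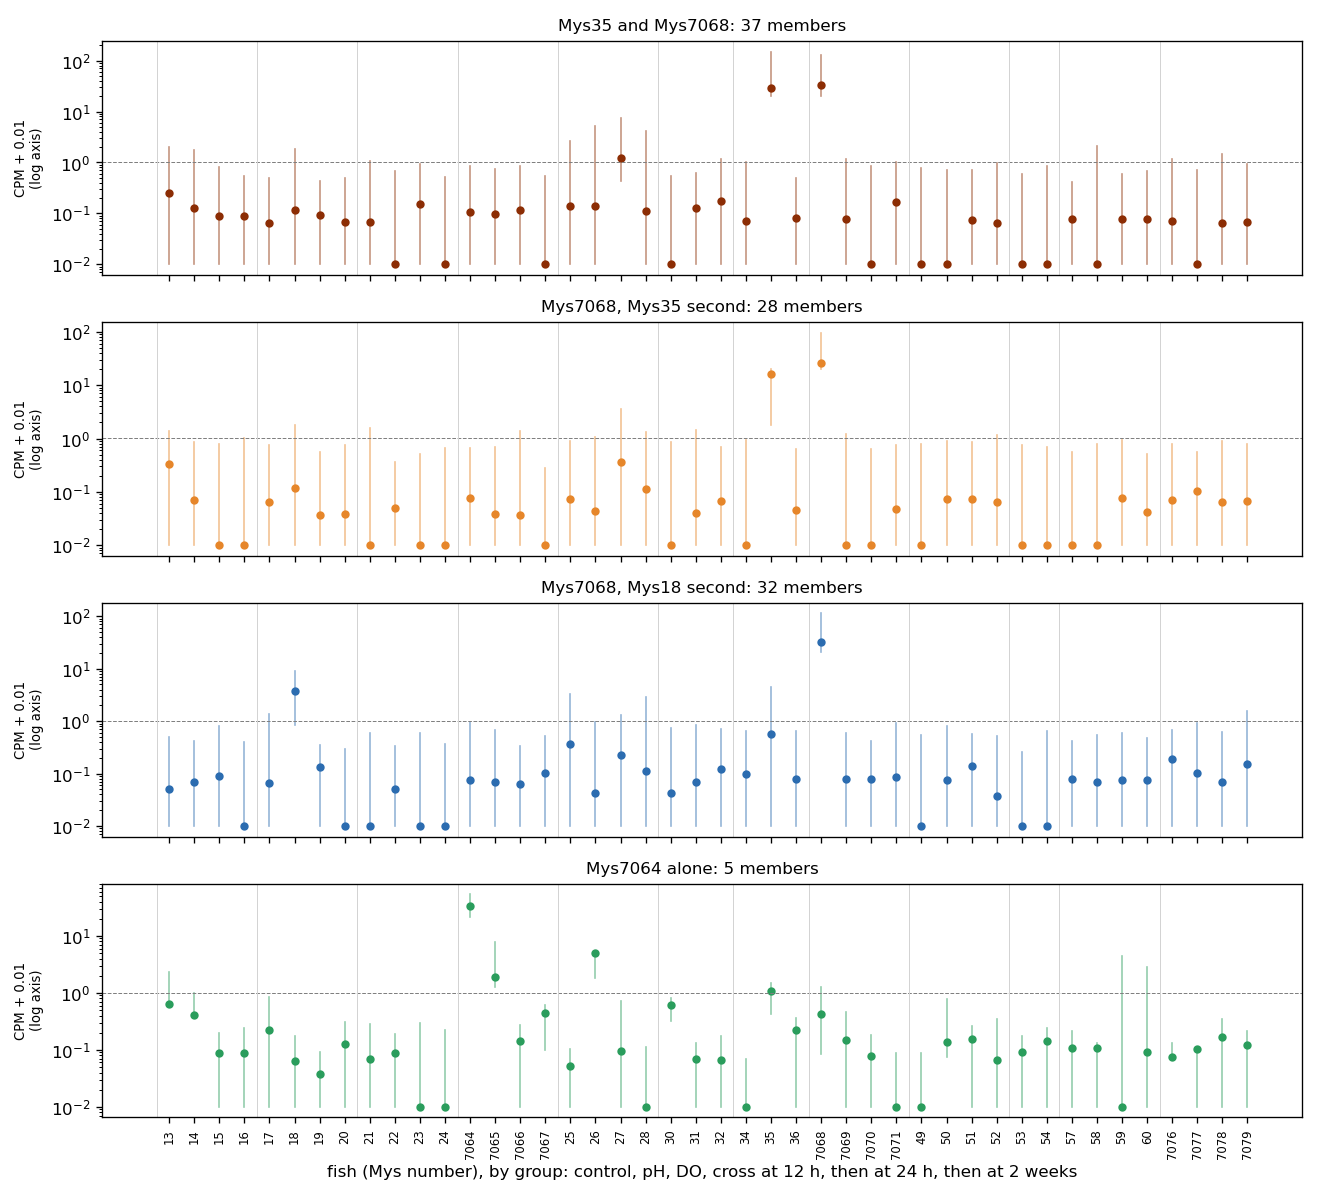
Median CPM (points) and range (lines) of the members of 4 blocks in each of the 44 fish, with 0.01 CPM added, on log axes; the dashed line marks 1 CPM. Mys27 follows the carriers of the joint block at 1.20 CPM, Mys18 is second in the panel named for it at 3.66 CPM, and Mys26 and Mys7065 follow Mys7064 in the bottom panel at 4.93 and 1.86 CPM.

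The 16 members carried by neither Mys7068 nor Mys35 included those 5 and 11 of other fish, which are described here in part after their values were seen. TRINITY_DN56031_c6_g2 had the second highest level of all members, 176 CPM in control fish Mys26 (24 h) and 21.4 CPM in DO fish Mys36 (24 h). The control group mates Mys25, Mys27 and Mys28 had 0.230, 0.280 and 0.169 CPM, DO fish Mys34 and Mys35 had 0.0788 and 0.736 CPM, and the 37 other fish had 0 to 2.25 CPM (median 0.122). TRINITY_DN56031_c6_g1 of the same component followed with 29.3 CPM in Mys26 and 2.76 CPM in Mys36. The pair of features thus ranked the same 2 fish first and second.

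TRINITY_DN51941_c13_g3 was the 1 member with 3 carriers, and they came from 3 groups. It stood at 105 CPM in DO fish Mys34 (24 h), 76.6 CPM in pH fish Mys20 (12 h) and 27.8 CPM in DO fish Mys59 (2 weeks), followed by 11.9 CPM in pH fish Mys31 (24 h). The group mates of the carriers had 0 to 0.0664 CPM. TRINITY_DN36270_c0_g1, of another cluster, was highest in the same 4 fish, with 43.7 CPM in Mys20, 17.5 CPM in Mys34, 11.1 CPM in Mys59 and 10.8 CPM in Mys31. The first of them is the only member with more than 1 carrier whose carriers span sampling times. The other features of its component summed to 1050 to 5330 CPM over the fish, and Mys34 ranked 34 of 44 there with 1538 CPM.

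A further 2 members were high in fish of 1 time and of different exposures. TRINITY_DN42487_c15_g1 had 33.6 CPM in pH fish Mys31 (24 h) and 32.3 CPM in control fish Mys26 (24 h), and all other fish had at most 0.353 CPM. TRINITY_DN45419_c5_g1 had 30.4 CPM in control fish Mys51 and 21.6 CPM in cross fish Mys7078, both of 2 weeks, and all other fish had at most 0.315 CPM. Levels between these extremes were absent for both.

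Single carriers made up the rest. Cross fish Mys7069 (24 h) carried TRINITY_DN61871_c0_g1 at 49.3 CPM and TRINITY_DN52935_c5_g2 at 30.1 CPM, and cross fish Mys7076 (2 weeks) was second in both, at 7.31 and 5.19 CPM. Control fish Mys25 (24 h) carried TRINITY_DN42620_c18_g3 at 25.9 CPM, with Mys18 second at 13.9 CPM. Mys17 (pH, 12 h) carried TRINITY_DN66901_c0_g1 at 25.5 CPM, with Mys7068 at 10.5 CPM. DO fish Mys57 (2 weeks) carried TRINITY_DN45644_c1_g4 at 21.8 CPM, and all other fish were under 1 CPM.

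The blocks were not made of pieces of a few assembled clusters. The 118 members lay in 111 clusters, of which 7 held 2 members each, in every case of 1 component. All 7 of these pairs shared a carrier and 3 shared the whole carrier set. Of the 6896 pairs of members from different clusters, 70.5% shared a carrier and 35.6% the whole set, shares that mostly come from Mys7068. For 26 members no other feature of the component was in the tables.

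Features of the same component that were not members were not used by the rule, but they share libraries, and may share reads, with the members. Of 90 members with such relatives, the relatives summed to a median of at least 1 CPM over the fish for 60. The fish with the member's highest level was also the highest for the relatives in 21 of these 60, among the 5 highest in 35, and the lowest in 0. Many of the 60 share Mys7068 as that fish, so the counts are a description. Mys7068 and Mys35 also had the most features at 1 CPM or more and the highest TMM factors. No such ranks were taken for components without members, so nothing is read from these counts.

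Features below the chosen level fell on the same fish. Another 160 features met the low-level condition with a highest value of 10 to 20 CPM, and 134 of them (83.8%) were highest in Mys7068 or Mys35. Mys7068 was highest in 113, with Mys35 second in 65 and Mys18 second in 39. Mys35 was highest in 21, with Mys7068 second in 18. Among non-members at 5 CPM or more in exactly 2 fish and under 1 CPM in all others there were 119 features, 116 of them of Mys35 and Mys7068, and only 4 of the 946 pairs of fish had any. Among those of exactly 1 fish there were 82, of which 67 were of Mys7068. Those of the 119 and the 82 with a highest value of at least 10 CPM are also among the 160, so these counts overlap. These features were not members, but they come from the same libraries.

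Without Mys7068 and Mys35 the rule found 18 features among 42 fish, an alternative added after the data were seen. For each fish left out, here and below, the number of fish asked to be under 1 CPM was lowered by 1. Mys7064 carried 6 of them, Mys17 and Mys7069 2 each, and 8 other carrier sets 1 each. A set of at least 5 members then remained only for Mys7064. Without Mys7068 alone there were 59 members and without Mys35 alone 116. With levels scaled by TMM, which lowers values in both fish, 57 members were found, of which they carried 44.

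Exposures were compared at each time with a model of all features, to ask whether any member differed between groups. The rule used the same counts, and a member could pass the filter on low counts through its carriers alone. It also made levels uneven within the groups of the carriers, and no member had all of 2 or 3 carriers in 1 group. How that choice affected the number of calls was not tested, so nothing is read from the numbers that passed or were called. The 3 comparisons of a time share their control fish. At 12 h, 6 members passed among 24701 features tested, at 24 h 57 among 26357, and at 2 weeks 15 among 26595. edgeR's quasi-likelihood test with Benjamini-Hochberg adjustment called 0 members in all 9 comparisons of pH, DO and cross with control. Over all features tested edgeR called 0% in each comparison at 12 h and 24 h and for cross at 2 weeks, 0.124% for pH at 2 weeks and 0.00376% for DO at 2 weeks. At an unadjusted p under 0.05 there were 2 members for pH, 0 for DO and 2 for cross at 12 h, beside 526, 1635 and 1229 of all features tested. At 24 h there were 2, 5 and 21 members beside 2199, 1709 and 4211 features, and at 2 weeks 0, 3 and 1 members beside 3296, 2123 and 1172 features. DESeq2 also called 0 members, but few of them got an adjusted p from it. For pH, DO and cross these numbered 6, 4 and 6 after 12 h, then 9, 9 and 5 after 24 h, then 0, 3 and 10 after 2 weeks. Over all features with an adjusted p, in the same order, DESeq2 called 7 of 24651, 29 of 21778 and 0 of 24651 after 12 h. After 24 h it called 26 of 26114, 0 of 26114 and 540 of 19011, and after 2 weeks 755 of 10075, 34 of 22418 and 1 of 26532. With no low-count filter edgeR called 5 of 117 members for pH and 1 of 117 for DO at 12 h, beside 30 and 154 of 124974 features. Leaving out any 1 fish of the groups compared, where at least 2 fish of each group remained, gave 0 called members in every comparison with control. Leaving out both Mys7068 and Mys35 at 24 h also gave 0. Over all features edgeR then called 1019 of 26005 for cross at 24 h without Mys25, and 0 to 2 in each of the other fits.

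Between control fish of different times edgeR called 2 members as higher at the later time, each through 1 fish. In 1 fit of all groups 116 members passed the filter among 34070 features. For controls of 24 h against 12 h, 1 of 116 members and 0.998% of all features were called, and for 2 weeks against 12 h, 1 of 116 members and 14.1% of all features. Since the rule selected these members on the same counts, their values are given with no fold change or p, and the calls support nothing.

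TRINITY_DN42487_c15_g1 had 0.0820, 0.177, 0.184 and 0.0772 CPM in control fish Mys13, Mys14, Mys15 and Mys16 at 12 h. At 24 h it had 0.255, 32.3, 0 and 0.307 CPM in control fish Mys25, Mys26, Mys27 and Mys28. Mys26 was far above all others, Mys25 and Mys28 were slightly above the 12 h fish, and Mys27 was below them. Apart from Mys26 these fish had 0 to 6.01 counts. Most were at or near the 3 counts taken as the lowest resolved level, so nothing is read from their order. Without Mys26 the feature did not pass the filter. The call was lost without Mys13, Mys14, Mys15, Mys16 or Mys28 and with no filter on low counts, and DESeq2 gave no adjusted p for it.

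TRINITY_DN45419_c5_g1 had 0.0820, 0.0591, 0.159 and 0 CPM in control fish Mys13, Mys14, Mys15 and Mys16 at 12 h. At 2 weeks it had 0.0779, 0, 30.4 and 0.112 CPM in control fish Mys49, Mys50, Mys51 and Mys52. Mys51 was far above all others, and the other 3 fish of 2 weeks lay within the range of the 12 h fish. Without Mys51 the feature did not pass the filter. The call was lost without Mys14 or Mys16 and with no filter on low counts, and DESeq2 gave no adjusted p for it.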

How the data were processed

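White muscle RNA of 44 juvenile blue rockfish was sequenced as stranded mRNA libraries, per the labels' protocols. The submitters' processing notes name RSEM 1.3.0, Bowtie, Trimmomatic 0.36, FastQC 0.11.5 and edgeR. The assembly method is not given in the sources used here. Expected counts per Trinity feature were deposited, unnormalized, in 3 tables, 1 for each time (9.60% of values are not whole). They were joined by feature identifier, and CPM was computed from column totals.

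The members and every list were chosen with earlier results of these data known. Named features were the 5 highest members, the 2 highest of each carrier set with at least 5 members, those nearest to the threshold, up to 3 in each of 3 clusters with most members, and members called by edgeR (no member had all of 2 or 3 carriers in 1 group); others were chosen after their values were seen.

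For tests, expected counts were rounded to whole numbers and fitted in R 4.3.3 with edgeR 4.0.16 (TMM, filterByExpr with minimum count 10 and total 15, robust quasi-likelihood, two-sided, threshold 0.05, adjusted over all features tested). The groups of a time shared 1 fit, and comparisons of times used 1 fit of all 12 groups. The test was also run on simulated data with known changes shared by a whole group. Such changes are unlike members high in 1 to 3 fish, so nothing is read from those runs for the members. Alternatives were carrier levels of 10 and 50 CPM, a low level of 0.5 CPM, TMM scaling, RLE size factors, no low-count filter, DESeq2 1.42.0 and each fish left out. A carrier level of 5 CPM and leaving out both Mys7068 and Mys35 were added after the data were seen. Where fish were left out of the rule, the number asked to be at the low level fell by the number left out. Python 3.11.15 with pandas 2.3.3, scipy 1.17.1 and matplotlib 3.10.9 served for the rest.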

Additional observations from a re-analysis of the deposited data

Results flagged for a closer look

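In the 9 groups of 4 fish, the highest or lowest fish was flagged where its gap to the nearest other fish exceeded 0.829 of the group's range; chance flags about 1 in 20 groups, and the 3 groups of 2 or 3 fish were not screened. Members were chosen for standing out in a few fish, so the flags on their levels follow from that choice and count as a description. The share of counts held by members sums the same values, so its flags also depend on that choice and are a description.

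Of the library measures, total counts were flagged high for control fish Mys14 at 12 h (16934130), high for pH fish Mys19 at 12 h (36692935) and low for cross fish Mys7071 at 24 h (12930086). The number of features at 1 CPM or more was flagged for cross fish Mys7076 at 2 weeks (20115). The share of counts held by members was flagged for cross fish Mys7064 at 12 h (0.0183%) and for cross fish Mys7068 at 24 h (0.381%).

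In control fish Mys26 at 24 h, the level was flagged for TRINITY_DN56031_c6_g2 (176.5 CPM), TRINITY_DN56031_c6_g1 (29.31 CPM) and TRINITY_DN42487_c15_g1 (32.33 CPM). TRINITY_DN45419_c5_g1 was flagged in control fish Mys51 (30.35 CPM) and cross fish Mys7078 (21.61 CPM) at 2 weeks, and TRINITY_DN45365_c2_g1 in cross fish Mys7064 at 12 h (53.63 CPM).

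In cross fish Mys7068 at 24 h, 10 named members were flagged. Of the joint block with Mys35 these were TRINITY_DN52821_c5_g2 (131.2 CPM), TRINITY_DN49525_c3_g3 (121.6 CPM), TRINITY_DN51530_c3_g1 (113.8 CPM) and TRINITY_DN41893_c4_g1 (112.8 CPM). Of the members it carried alone they were TRINITY_DN45050_c0_g4 (112.7 CPM), TRINITY_DN33504_c0_g1 (96.45 CPM), TRINITY_DN54659_c2_g2 (55.83 CPM), TRINITY_DN49525_c3_g5 (41.85 CPM), TRINITY_DN54659_c2_g5 (32.43 CPM) and TRINITY_DN49385_c1_g1 (20.03 CPM). Mys35 belongs to a group of 3 fish and could not be screened.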

How the results depend on the processing

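The 118 members became 276 at a carrier level of 10 CPM, 20 at 50 CPM, 741 at 5 CPM, 57 with TMM scaling and 18 without Mys7068 and Mys35; leaving out 1 fish gave 59 to 120. At 10 and 5 CPM the limit of 200 was reached, so all further values at these levels, shares of counts included, cover only the 200 highest. Members with 1 carrier (77) became 11 at 50 CPM, 40 with TMM and 14 without both fish, and 55 to 112 with 1 fish left out. The largest carrier set (60, Mys7068 alone) became 8 at 50 CPM and 30 with TMM. It was another set, Mys35 with Mys7068, at 10 CPM (87, with 76 for Mys7068 alone) and at 5 CPM (91, with 56 for Mys7068 alone). Without both fish it was Mys7064 (6). With 1 fish left out it was 42 (Mys35, without Mys7068) to 99 (Mys7068, without Mys35). Sets with at least 5 members (4) became 2 at 50 CPM, 2 with TMM and 1 without both fish, and 2 to 4. Members with all of 2 or 3 carriers in 1 group (0) became 2 at 5 CPM, and 0 to 0 with 1 fish left out. Those with all at 1 time (40) became 90 at 10 CPM, 8 at 50 CPM, 15 with TMM, 102 at 5 CPM and 3 without both fish, and 3 to 40. Pairs of 1 cluster with the same carrier set (3) became 17, 0 and 15 at 10, 50 and 5 CPM. At those levels the share of counts was 0.483%, 0.136% and 0.482% in Mys7068 and 0.320%, 0.141% and 0.319% in Mys35. The median of all 44 fish was 0.00398%, 0.000310% and 0.00400%, beside 0.00228% by the rule as used. Mys7068 or Mys35 carried 172 of the 200 highest members at 10 CPM, 17 of 20 at 50 CPM, 80 of 90 with a low level of 0.5 CPM and 172 of the 200 highest at 5 CPM. TMM scaling divides the levels of Mys35 and Mys7068 by 1.74 and 1.60.

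With no low-count filter edgeR called 5 of 117 members and 30 of 124974 features for pH at 12 h, where 0 members were reported. For DO at 12 h it called 1 of 117 members and 154 of 124974 features, where 0 members were reported. For controls of 24 h and of 2 weeks against 12 h it called 0 members, where 1 each was reported. Of all 155122 features it called 455 and 3310 there. DESeq2 called 0 of 19 members and 999 of 18834 features for controls of 24 h. For controls of 2 weeks it called 4 of 37 members and 5748 of 32461 features. These 4 were other members, all lower at 2 weeks. The rule used the same counts, so nothing is read from these numbers. The cause was not tested. With 1 fish left out the numbers of members were 0 to 3 for 24 h, beside 12 to 2094 of all features. For 2 weeks they were 0 to 1, beside 2849 to 5139 of all features. In the 9 comparisons of exposures they were 0 where at least 2 fish of each group remained. The other alternatives left these counts within 1.5 times. No paired analysis was possible because fish numbers are not shared between groups. At the depth of these libraries 3 counts equal 0.0818 to 0.303 CPM, so lower levels in fish that carry nothing are not resolved.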
